A study of Mus musculus with 12 samples.

Results

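De novo lipogenesis, the synthesis of fatty acids from carbohydrate carbon, was followed in inguinal white adipose tissue (iWAT) through 10 genes taken by symbol from the raw count table, Fasn, Acaca, Acly, Scd1, Scd2, Elovl6, Me1, Srebf1, Mlxipl and Thrsp. All 10 were among the 54134 genes listed and among the 15585 genes that passed the filter on low counts. The tissue came from 12 male C57BL/6J mice on a chow diet, each sequenced once. At 8 weeks of age the mice received adeno-associated virus (AAV) through the tail vein, carrying either GFP (AAV-GFP, here GFP mice, n = 6) or mouse Notum (AAV-Notum, here Notum mice, n = 6), and iWAT was taken 4 weeks later after a 4 h fast. The vectors were of serotype 8 with the thyroxine binding globulin promoter, which is active in hepatocytes, so the transgenes were placed to be expressed in liver and iWAT was read as a distant tissue. No uninjected mice were compared. Wnt ligands carry a fatty acid that they need for signalling, and the product of Notum, an enzyme released from cells, takes it off.

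The pathway starts with citrate that leaves the mitochondria. ATP citrate lyase (Acly) splits it into acetyl-CoA, acetyl-CoA carboxylase 1 (Acaca) turns acetyl-CoA into malonyl-CoA, and fatty acid synthase (Fasn) joins these units into palmitate with NADPH, part of which malic enzyme (Me1) supplies. Elovl6 lengthens palmitate to stearate, and the stearoyl-CoA desaturases (Scd1, Scd2) place a double bond in either product. Srebf1 encodes SREBP-1, which transmits the insulin signal to these genes, Mlxipl encodes ChREBP, which responds to glucose metabolites, and Thrsp encodes Spot 14, a small protein that promotes lipogenesis in fat and liver. Adipocytes express the whole pathway, and its transcripts are known to fall with fasting and return with feeding.

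Promoters of the members are given because most of these genes varied together between the mice. Promoter windows (250 bases before to 50 after the start, RefSeq, GRCm38.p6) were matched by symbol for 8 of the 10 members, all but Scd1 and Scd2, and gave 12 windows. Shown are the windows of Fasn (chr11:120824498-120824797, minus strand) and of 3 genes that followed Fasn closely from mouse to mouse, Acly (chr11:100527951-100528250, minus strand), Me1 (chr9:86695865-86696164, minus strand) and Elovl6 (chr3:129532136-129532435, plus strand). They read 5′ to 3′ on the strand of the gene, and capitals mark the CCAAT box (CCAAT), the GC box (GGGCGG), the E-box (CACGTG) and the core of the sterol regulatory element (TCACNCCAC), searched on both strands.
Fasn: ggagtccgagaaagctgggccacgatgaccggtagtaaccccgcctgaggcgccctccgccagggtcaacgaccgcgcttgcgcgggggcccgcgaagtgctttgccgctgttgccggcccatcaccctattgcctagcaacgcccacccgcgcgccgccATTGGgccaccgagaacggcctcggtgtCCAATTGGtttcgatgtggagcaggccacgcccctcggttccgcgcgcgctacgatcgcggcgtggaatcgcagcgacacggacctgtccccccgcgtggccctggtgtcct
Acly: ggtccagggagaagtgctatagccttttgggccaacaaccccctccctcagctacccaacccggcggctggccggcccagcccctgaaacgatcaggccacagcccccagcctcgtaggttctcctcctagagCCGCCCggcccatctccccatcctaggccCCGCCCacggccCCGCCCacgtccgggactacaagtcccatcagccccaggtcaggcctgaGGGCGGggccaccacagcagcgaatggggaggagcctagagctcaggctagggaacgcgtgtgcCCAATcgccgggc
Me1: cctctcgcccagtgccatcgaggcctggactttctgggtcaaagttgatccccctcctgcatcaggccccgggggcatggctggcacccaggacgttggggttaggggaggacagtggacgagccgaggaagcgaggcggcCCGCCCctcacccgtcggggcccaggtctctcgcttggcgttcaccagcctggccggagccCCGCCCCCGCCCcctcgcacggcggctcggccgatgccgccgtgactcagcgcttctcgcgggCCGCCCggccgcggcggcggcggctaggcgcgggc
Elovl6: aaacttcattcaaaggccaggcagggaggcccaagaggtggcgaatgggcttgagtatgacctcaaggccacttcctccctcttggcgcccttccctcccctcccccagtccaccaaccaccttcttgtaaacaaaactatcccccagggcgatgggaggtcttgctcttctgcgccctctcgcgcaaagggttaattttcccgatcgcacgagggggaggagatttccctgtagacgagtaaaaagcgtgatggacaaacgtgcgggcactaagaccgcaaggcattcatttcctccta

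The CCAAT box, the site of the factor NF-Y, was present in 7 of the 12 member windows and in 37.4% of the 32851 promoter windows of the genome. Fasn held 3 of them, of which 2 share bases in the palindrome ccaattgg, Thrsp held 2 and Acly held 1. The Acaca window, on an inner start 65766 bases into the gene, held none. The GC box, the site of SP1, was present in 5 of the 12 windows and in 35.7% of all windows, with 4 in Acly and 4 in Me1. The E-box letters stood in 1 member window, that of Mlxipl at chr5:135089640-135089939 (plus strand), against 7.15% of all windows. The sterol regulatory element core also stood in 1, a second Mlxipl window at chr5:135106641-135106940 (plus strand), against 1.24% of all windows. The Elovl6 window held none of these letters, which says nothing of the factors that bind it.

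Total counts ran from 14711113 to 21618860 per mouse, and the members took 1.32% to 5.46% of the reads in GFP mice and 2.06% to 4.70% in Notum mice. Notum itself had 1 to 17 reads in 10 mice and 560 and 433 reads in AAV-Notum-2032 and AAV-Notum-2041. The 11 adipocyte markers summed to between 34513 and 78127 CPM (counts scaled to a common library size), as the fat label has it. Lymphoid transcripts set 2 mice apart: the mean of 15 markers was -0.04 log2 CPM in AAV-GFP-2011 and -0.57 in AAV-GFP-2014 against 3.66 to 7.13 in the others. Hepatocyte transcripts were high in AAV-GFP-2013, AAV-GFP-2014 and AAV-Notum-2041, with a mean of 10 markers of 8.50, 6.78 and 6.07 log2 CPM against 0.62 to 4.83 in the others. Skeletal muscle transcripts were highest in AAV-Notum-2042, with a mean of 8 markers of 8.60 log2 CPM against -0.19 to 6.30 in the others. The RNA integrity number was 5.7 to 7.6 in GFP and 6.9 to 7.4 in Notum mice, and RNA of AAV-GFP-2012 was isolated on a later date than the others. In pieces of tissue, fewer cells of a type and less RNA per cell cannot be told apart.

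The enzymes that make and lengthen palmitate had higher mean levels in Notum than in GFP mice, and the desaturases did not. Acly, Me1, Acaca, Fasn and Elovl6 had log2 fold changes (log2FC) from 0.72 to 1.40, Thrsp and Srebf1 had 0.47 and 0.19, and Mlxipl, Scd2 and Scd1 had -0.17, -0.33 and -0.53. None of these passed the test over all genes. By edgeR's quasi-likelihood test, 0 of the 10 members had an adjusted p under 0.05, the smallest being 0.247 for Me1, and DESeq2 and limma-voom gave 0 as well. Among all genes tested by edgeR 0% were higher and 0.0513% (8 genes) lower at that level. The shares were 0.481% and 2.17% (79 and 357 genes) by DESeq2, and 0% and 0.0385% (0 and 6 genes) by limma-voom. At an unadjusted p under 0.05 stood 3 members, Elovl6, Me1 and Acaca, all higher in Notum mice, where 4.64% of all genes were higher and 9.54% lower. The median log2FC was 0.59 over the members and 0.01 over all genes tested. The spread between mice of 1 group was wide, up to 7.37-fold for Acly in GFP mice and 8.09-fold for Elovl6 in Notum mice.

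**Figure D1:**
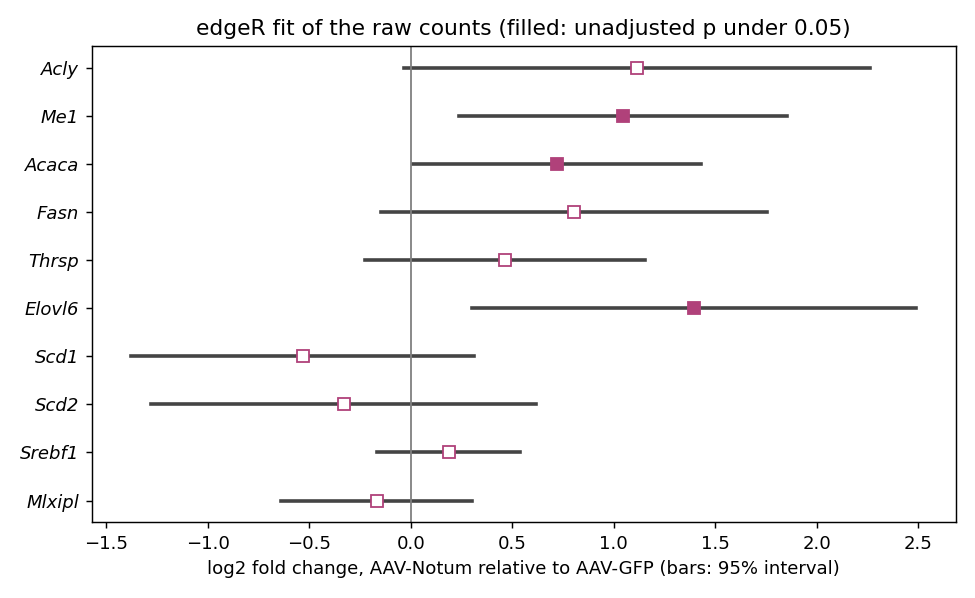
Log2FC of each member from edgeR's fit (x axis, AAV-Notum relative to AAV-GFP, n = 6 mice each), with bars for the 95% interval and filled squares for an unadjusted p under 0.05. The intervals of Elovl6, Me1 and Acaca lie above 0, and those of the other 7 members include 0.

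Carbon and reducing power enter the pathway through Acly and Me1. Acly (ENSMUSG00000020917, chr11:100476353-100528000) had 206, 706 and 1516 CPM as the lowest, median and highest value in GFP mice and 387, 1506 and 2607 CPM in Notum mice. The groups overlapped, with 3 Notum mice above every GFP mouse. Its log2FC was 1.11 (SE 0.53, 95% interval -0.03 to 2.26, edgeR adjusted p = 0.362). Me1 (ENSMUSG00000032418, chr9:86581371-86695953) had 187, 377 and 654 CPM in GFP mice and 241, 808 and 1152 CPM in Notum mice. Here too 3 Notum mice lay above every GFP mouse, while AAV-Notum-2032 lay below 5 of the 6. The log2FC of Me1 was 1.04 (SE 0.37, 95% interval 0.24 to 1.85, unadjusted p = 0.0153, edgeR adjusted p = 0.247).

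Acaca catalyses the committed step and Fasn the chain synthesis. Acaca (ENSMUSG00000020532, chr11:84129672-84401651) had 166, 394 and 707 CPM in GFP mice and 305, 702 and 1057 CPM in Notum mice. The ranges overlapped, with 3 Notum mice above every GFP mouse. The log2FC was 0.72 (SE 0.33, 95% interval 0.01 to 1.43, unadjusted p = 0.0470, edgeR adjusted p = 0.345). Fasn (ENSMUSG00000025153, chr11:120805846-120824547) had 1779, 5778 and 12423 CPM in GFP mice and 4453, 10330 and 16397 CPM in Notum mice. The 2 highest Notum mice lay above all GFP mice, and the GFP mouse of highest Fasn, AAV-GFP-2014, lay above 4 Notum mice. The log2FC of Fasn was 0.80 (SE 0.44, 95% interval -0.15 to 1.75, edgeR adjusted p = 0.406). Thrsp (ENSMUSG00000035686, chr7:97412938-97417730) had 488, 876 and 1738 CPM in GFP mice and 620, 1451 and 1778 CPM in Notum mice, with only 1 Notum mouse above every GFP mouse. Its log2FC was 0.47 (SE 0.32, 95% interval -0.22 to 1.16, edgeR adjusted p = 0.476).

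Elongation and desaturation had differences of opposite sign. Elovl6 (ENSMUSG00000041220, chr3:129532355-129638495) had 30.8, 91.4 and 169 CPM in GFP mice and 69.0, 184 and 559 CPM in Notum mice, the largest fold of the members. Again 3 Notum mice lay above every GFP mouse, and the lowest, AAV-Notum-2032, lay among the GFP mice. Its log2FC was 1.40 (SE 0.50, 95% interval 0.30 to 2.49, unadjusted p = 0.0166, edgeR adjusted p = 0.254). Without AAV-Notum-2041, the mouse of highest Elovl6, the log2FC was 0.95. Scd1 (ENSMUSG00000037071, chr19:44394455-44407879), the main desaturase of adipocytes, had 8986, 24926 and 42307 CPM in GFP mice and 11798, 16292 and 27120 CPM in Notum mice. No Notum mouse reached the highest AAV-GFP value, and 5 of 6 lay below the AAV-GFP mean. The log2FC of Scd1 was -0.53 (SE 0.39, 95% interval -1.38 to 0.31, edgeR adjusted p = 0.493), and it was -0.31 without AAV-GFP-2014 and -0.16 without both AAV-GFP-2014 and AAV-GFP-2011. Scd2 (ENSMUSG00000025203, chr19:44293674-44306864), a paralog about which the counting of shared reads is not stated, had 109, 253 and 646 CPM in GFP mice and 144, 240 and 343 CPM in Notum mice. All 6 Notum mice lay within the GFP range. The log2FC of Scd2 was -0.33 (SE 0.44, edgeR adjusted p = 0.679) and turned to 0.04 without AAV-GFP-2014 and to 0.41 without AAV-GFP-2011 and AAV-GFP-2014.

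By edgeR's log2FC the transcription factors of the pathway differed least. In mean log2 CPM, Scd2 differed by less (-0.05) than Srebf1 (0.19) or Mlxipl (-0.18). Srebf1 (ENSMUSG00000020538, chr11:60199089-60222581) had 285, 370 and 497 CPM in GFP mice and 320, 407 and 529 CPM in Notum mice. The groups overlapped over most of their range, with 2 Notum mice on top. The log2FC was 0.19 (SE 0.16, 95% interval -0.16 to 0.54, edgeR adjusted p = 0.542). Mlxipl (ENSMUSG00000005373, chr5:135089890-135138382) had 88.6, 144 and 190 CPM in GFP mice and 74.7, 125 and 175 CPM in Notum mice. No Notum mouse lay above the GFP range and 1 lay below it. Its log2FC was -0.17 (SE 0.22, 95% interval -0.64 to 0.30, edgeR adjusted p = 0.671), and it was 0.01 without AAV-GFP-2011 and AAV-GFP-2014. The coefficient of variation between GFP mice was 20.7% for Srebf1 and 25.6% for Mlxipl against 41.5% to 71.7% for the other 8 members. The gene-level counts do not separate SREBP-1a from SREBP-1c or the isoforms of ChREBP.

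**Figure D2:**
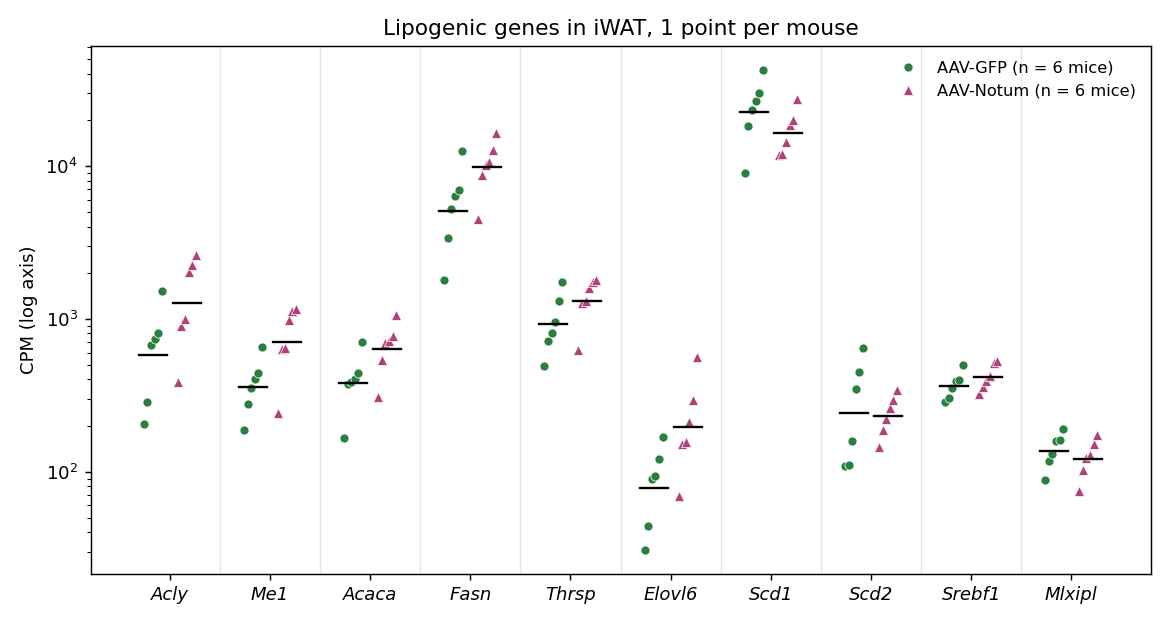
CPM of the 10 members on a log axis, with 1 circle per GFP mouse, 1 triangle per Notum mouse (n = 6 each) and a bar for the geometric mean. Acly, Me1, Acaca, Fasn and Elovl6 sit higher in most Notum mice but overlap with AAV-GFP, as with Fasn at 4453 to 16397 against 1779 to 12423 CPM.

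On log2 CPM alone, two-sided exact permutation tests over the assignments of 12 mice to groups of 6 (smallest p 0.00216) gave 1 member at p under 0.05, Elovl6 (p = 0.0498), with Me1 at 0.0541, Acaca at 0.0671 and Fasn at 0.0693. By the same test 5.39% of all genes were higher and 7.79% lower. The call of Elovl6 did not hold and no member was left when any 1 of 8 mice was left out (AAV-GFP-2011, AAV-GFP-2012, AAV-GFP-2022, AAV-Notum-2031, AAV-Notum-2033, AAV-Notum-2034, AAV-Notum-2041 or AAV-Notum-2042). Complete separation of the groups was found in no member, while 0.398% of all genes had every Notum mouse above every GFP mouse and 0.693% had the reverse. Without AAV-GFP-2011 and AAV-GFP-2014, 6 members were higher at an exact permutation p under 0.05, where 2.7% of all genes were higher and 4% lower. The same mice marked the ends of the range again and again. AAV-GFP-2013 was lowest of its group in 8 members, AAV-GFP-2014 highest in 10, AAV-Notum-2032 lowest in 9 and AAV-Notum-2041 highest in 8.

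Levels per kb of exon placed the desaturase far above the rest. Scd1 had 5085 ± 2295 CPM per kb (SD, n = 6) in GFP mice and 3517 ± 1197 in Notum mice, above Fasn in every mouse and with no overlap of the ranges. Fasn followed with 548 ± 336 and 956 ± 365 CPM per kb, and Thrsp with 457 ± 207 and 632 ± 196. Fasn exceeded Thrsp in 3 of 6 AAV-GFP and 5 of 6 Notum mice, so their order did not hold beyond the spread. Acly, Me1, Srebf1 and Scd2 came next in both groups, with 133 to 55.6 CPM per kb in AAV-GFP and 289 to 44.2 in Notum mice. At the bottom the order changed: Elovl6 was last in GFP mice at 14.2 ± 7.88 CPM per kb, below Acaca in 6 of 6, and reached 37.4 ± 26.9 in Notum mice. Mlxipl was last there at 22.7 ± 6.38 CPM per kb, below Elovl6 in 4 of 6 mice. Apart from Scd1 and Fasn, neighbours in these orders had overlapping ranges.

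Because pieces of iWAT hold different shares of lymph node and other cells, each member was also set against the adipocyte within the same mouse, as its log2 CPM minus the mean log2 CPM of 11 adipocyte markers (Adipoq, Plin1, Cidec, Fabp4, Lipe, Pnpla2, Retn, Cfd, Lep, Aqp7 and Adrb3). Of the 11 markers, 9 had a negative log2FC, and the median of the 11 was -0.31. By edgeR 1 was lower at an unadjusted p under 0.05, where 9.54% of all genes were lower. The marker mean was 0.28 lower in Notum mice (10.8 against 11.1 log2 CPM, exact permutation p = 0.273), with which the relative difference of the median gene moved to 0.29. On this scale the members' median difference was 0.90, and 6 members were higher at a two-sided exact permutation p under 0.05, where 4.26% of all genes were higher and 2.41% lower. By that exact permutation test the 6 were Elovl6 (difference 1.60, p = 0.0216), Me1 (1.26, p = 0.0216), Fasn (1.22, p = 0.0260), Acaca (1.02, p = 0.0195), Thrsp (0.79, p = 0.0130) and Srebf1 (0.47, p = 0.00433). Beyond the median gene, these differences were 1.31, 0.97, 0.93, 0.74, 0.50 and 0.18. These p-values are not adjusted over genes.

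Srebf1 had the most regular difference, with relative levels from -3.02 to -2.24 in GFP mice and -2.34 to -1.91 in Notum mice, and Srebf1 and Thrsp each had 5 Notum mice above every GFP mouse. Full separation on this scale was found in 0.205% of all genes and in no member. Acly had a relative difference of 1.42 (p = 0.0563 by the same exact permutation test), and 3 Notum mice lay above every GFP mouse. Scd1 had a relative difference of -0.17 (exact permutation p = 0.511), or -0.46 against the median gene. Scd2 and Mlxipl had 0.23 and 0.10, which became -0.06 and -0.19 against the median gene. Each of the 11 markers alone was also used as reference, chosen after the data were seen. Elovl6 was at an exact permutation p under 0.05 for 10, Fasn and Me1 for 9, and Acaca and Thrsp for 8. Srebf1 was so for 7, Acly for 4, Mlxipl for 1, and Scd1 and Scd2 for 0. With Cfd no member was at that level, and with Fabp4 only Elovl6 and Me1 were. The median difference of all genes was -0.13 with Cfd, 0.05 with Fabp4 and 0.64 with Aqp7. The share of all genes that were higher at that level ran from 0.135% with Lep to 39.7% with Aqp7 as reference, and the share lower from 0.0962% with Lep to 10.5% with Cfd. The count of 6 members was 4 without AAV-GFP-2014 and AAV-GFP-2011, with Elovl6 and Me1 at an exact permutation p of 0.0524, where 1.26% of all genes were higher and 2.69% lower. It was 2, Srebf1 and Thrsp, without AAV-GFP-2013, AAV-GFP-2014 and AAV-Notum-2041, the mice with the most hepatocyte transcripts, where 1.92% of all genes were higher and 1.59% lower.

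**Figure D3:**
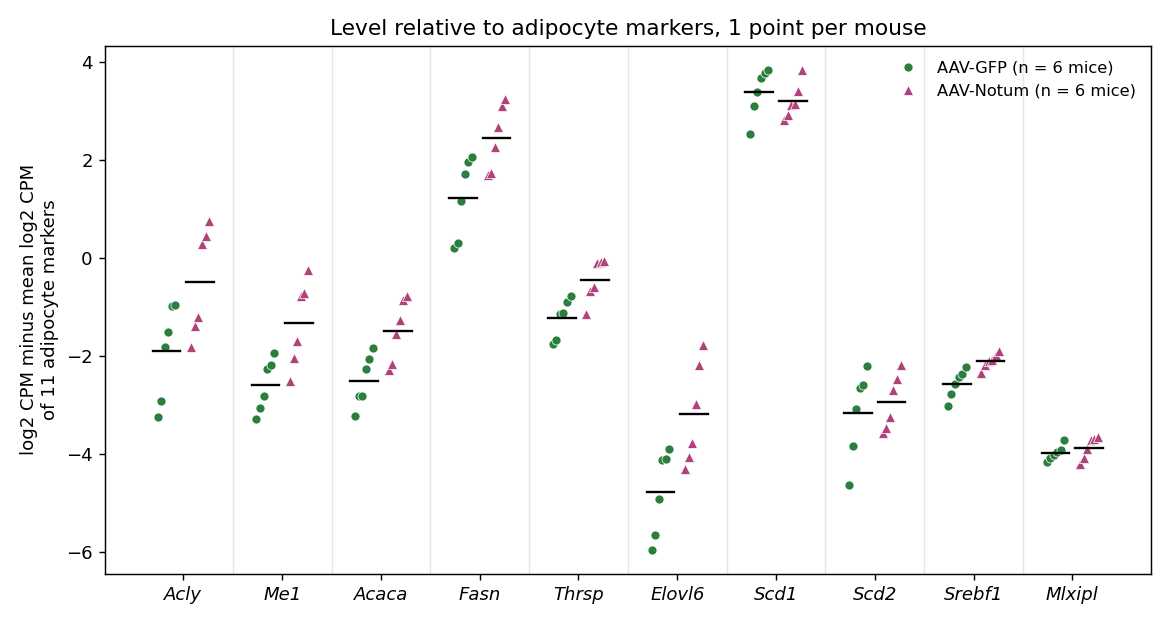
Level of each member relative to adipocyte markers (y axis, log2 CPM minus the mean log2 CPM of 11 markers), with 1 point per mouse and a bar for the group mean (n = 6 each). The AAV-Notum points of Srebf1 form a narrow band from -2.34 to -1.91, and the Scd1 points of all 6 Notum mice lie within the GFP range.

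The balance between synthesis and desaturation was read from ratios of CPM within a mouse, chosen after the data were seen and given as a description with no test. Of the 45 pairs of members, 3 had ratios that did not overlap between the groups, and all 3 contained Scd1. Of the 15584 other genes tested, members included, 0.128% (20 genes) had a ratio to Scd1 with every Notum mouse above every GFP mouse, and 0.0257% (4 genes) had the reverse. Fasn had 0.145 to 0.294 times the CPM of Scd1 in GFP mice (median 0.236) and 0.372 to 0.900 times in Notum mice (median 0.576). For Acaca the ratio to Scd1 was 0.0135 to 0.0204 in GFP mice and 0.0255 to 0.0586 in Notum mice. For Elovl6 it was 0.00189 to 0.00487 in GFP mice and 0.00577 to 0.0206 in Notum mice. Each Notum mouse therefore had more Fasn, Acaca and Elovl6 per Scd1 than any GFP mouse, although none of these genes separated the groups by itself.

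The ratios of Acly, Me1 and Thrsp to Scd1 had 5 of 6 Notum mice above every GFP mouse, and their medians were 2.68, 2.42 and 1.98 times as high in Notum mice. The ratio of Scd2 to Scd1 had medians of 0.0126 and 0.0123. For Srebf1 and Mlxipl the medians were 1.75 and 1.36 times as high in Notum mice, and no Notum mouse lay above the highest AAV-GFP ratio, that of AAV-GFP-2013. Fasn and Acaca, by contrast, kept a similar proportion in most mice. Fasn had 13.9 to 17.6 times the CPM of Acaca in 4 GFP mice, 8.74 and 10.7 times in AAV-GFP-2012 and AAV-GFP-2013, and 14.1 to 16.4 times in all 6 Notum mice.

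**Figure D4:**
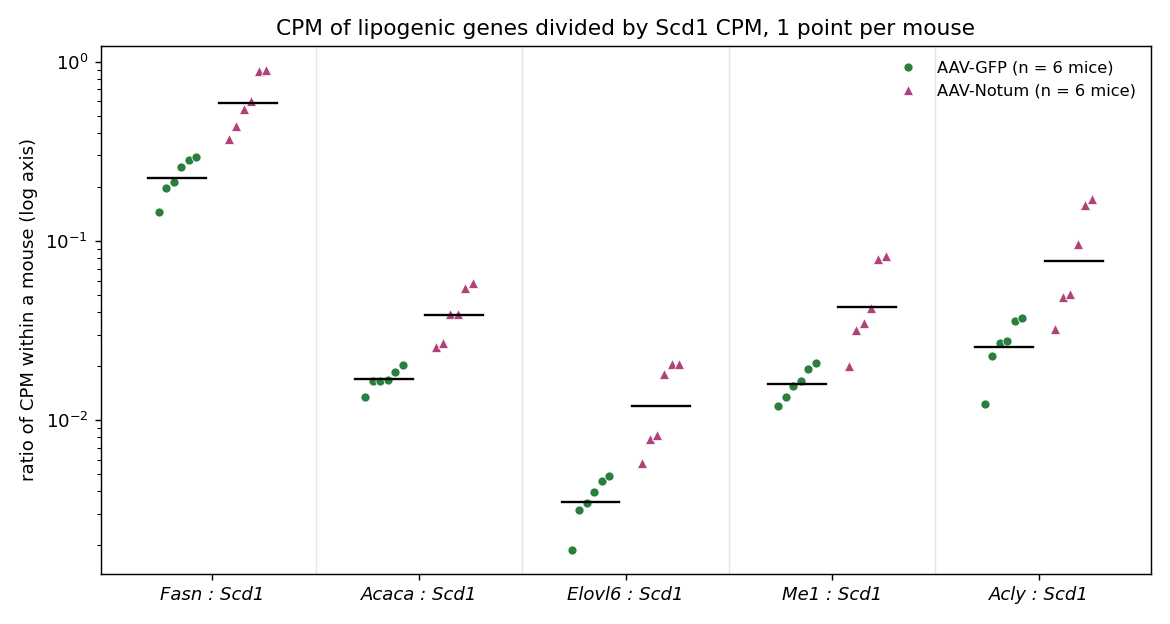
CPM of 5 members divided by Scd1 CPM in the same mouse (log axis), with 1 point per mouse and a bar for the geometric mean (n = 6 each). The groups do not overlap for Fasn (0.145 to 0.294 against 0.372 to 0.900), Acaca and Elovl6, and overlap by 1 Notum mouse for Me1 and Acly.

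Between mice the synthetic enzymes varied together. Over the 12 mice, log2 CPM of Fasn correlated with that of Acaca (Pearson's r = 0.97, Spearman's rho = 0.96), Acly (0.96 and 0.98), Elovl6 (0.96 and 0.99), Me1 (0.94 and 0.99) and Thrsp (0.90 and 0.82). Permutation tests with 100000 resamples, adjusted over the 9 relations, gave p of at most 2.16e-04 for Pearson's r and 0.00328 for Spearman's rho in these 5 genes. Of all genes other than Fasn, 22 (0.141%), these 5 included, had a Pearson's r with Fasn at or above that of Thrsp. Scd2 followed at r = 0.73 (rho = 0.69, adjusted permutation p = 0.0101 and 0.0236). Srebf1 (r = 0.59, rho = 0.55, adjusted permutation p = 0.0544 and 0.0858), Scd1 (r = 0.46, rho = 0.33, adjusted p = 0.153 and 0.334) and Mlxipl (r = 0.29, rho = 0.24, adjusted p = 0.365 and 0.442) did not pass. Without AAV-GFP-2012 and AAV-GFP-2013, the mice farthest from the median of Fasn, r was 0.99 for Acaca, 0.93 for Acly, 0.93 for Elovl6, 0.95 for Me1, 0.84 for Thrsp, 0.60 for Srebf1, 0.56 for Mlxipl, 0.51 for Scd2 and 0.26 for Scd1, so that of Scd2 rested in part on these mice. Without AAV-GFP-2014 and AAV-GFP-2011 it was 0.90 to 0.97 for the 5 genes named first. All members of a mouse share its library scaling and its share of adipocyte RNA.

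Group membership entered these values unevenly. On values centred on the group means, r with Fasn was 0.95 for Acaca, 0.95 for Acly, 0.94 for Elovl6, 0.92 for Me1 and 0.88 for Thrsp, little moved from above. For Scd1 it was 0.83 (adjusted permutation p = 0.00143) and for Scd2 0.89 (adjusted p = 1.98e-04). Within each group, r of Scd1 with Fasn was 0.93 over the 6 GFP mice and 0.59 over the 6 Notum mice, a difference that was not tested. Among the Notum mice AAV-Notum-2034 had the lowest Scd1 (11798 CPM) and the third highest Fasn (10619 CPM). Srebf1 and Mlxipl had 0.52 and 0.50 with adjusted permutation p of 0.0981 and 0.100.

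**Figure D5:**
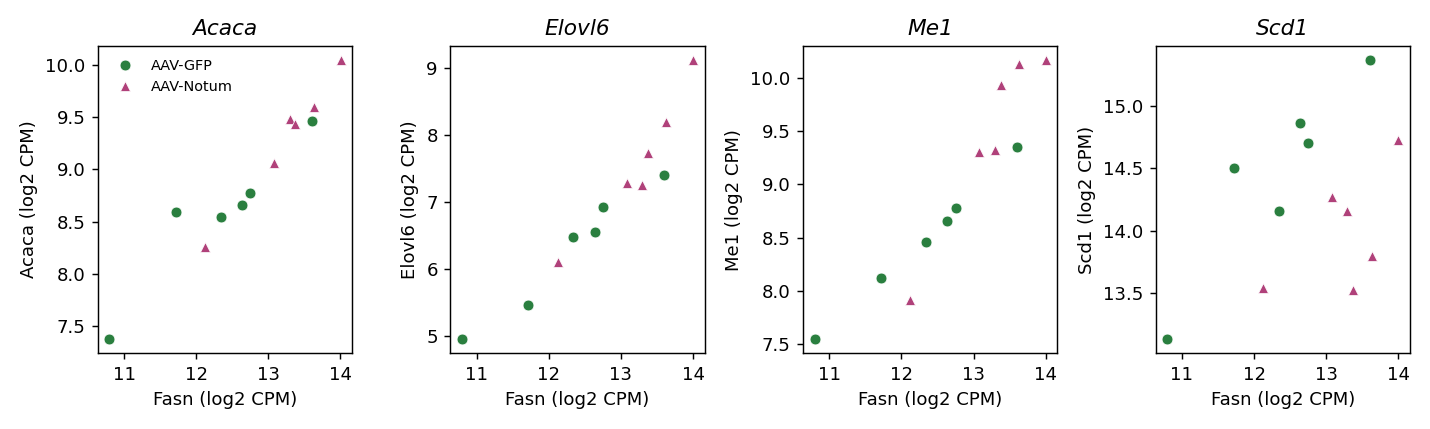
Log2 CPM of Acaca, Elovl6, Me1 and Scd1 (y axes) against log2 CPM of Fasn (x axis), 1 point per mouse (n = 12). In the first 3 panels the levels rise together over all mice (r = 0.97, 0.96 and 0.94), and no line was fitted. Fasn had 56.8 to 76.7 times the CPM of Elovl6 in GFP mice and 29.4 to 65.9 times in Notum mice. In the Scd1 panel the Notum mice lie below the GFP mice of like Fasn (r = 0.46 over all mice).

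The 8 genes outside the members whose group-centred log2 CPM was most like the members' mean over the 12 mice were Pygl (r = 0.98), Gbe1, Aldoa, Pdha1, Gpd1, Ptges, Aldh1a7 and Slc25a35 (r = 0.96). Pygl and Gbe1 encode enzymes of glycogen turnover, Aldoa and Gpd1 enzymes of glycolysis and glycerol 3-phosphate synthesis, and Pdha1 a subunit of pyruvate dehydrogenase. Their log2FC values between the groups ran from 0.05 for Aldh1a7 to 0.46 for Pdha1 (edgeR's adjusted p = 0.927 and 0.366), below those of Fasn or Elovl6.

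A further 46 genes of lipogenesis were taken in 4 lists, and all 46 were tested. None had an adjusted p under 0.05 by edgeR (smallest 0.140), and at an unadjusted p under 0.05 there were 7 higher and 2 lower, where 4.64% of all genes were higher and 9.54% lower. Their median log2FC was 0.06. Of the 11 genes of citrate, acetyl-CoA and NADPH supply, 9 had a positive log2FC and 3 of these, Slc25a1, Tkt and Pgls, were at an unadjusted p under 0.05. Slc25a1, the carrier that exports citrate to Acly, had 433 ± 139 CPM (SD, n = 6) in GFP mice and 806 ± 264 in Notum mice, with 5 Notum mice above every GFP mouse (log2FC 0.90, SE 0.28, edgeR adjusted p = 0.214). The smallest p among the lower genes of this list was that of G6pdx, which starts the pentose phosphate pathway (178 ± 61.6 against 162 ± 33.5 CPM, log2FC -0.13, edgeR adjusted p = 0.761).

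Among 12 regulators, Mlx, Insig1 and Usf2 were higher and Insig2 lower at an unadjusted p under 0.05, against the same 4.64% and 9.54% of all genes. Mlx, the partner through which ChREBP binds DNA, had 31.1 ± 1.45 CPM in GFP mice and 39.6 ± 5.24 in Notum mice, with 5 Notum mice above every GFP mouse (log2FC 0.35, SE 0.09, edgeR adjusted p = 0.140). Insig2, a protein that retains the SREBP escort factor in the endoplasmic reticulum, had 79.3 ± 17.6 CPM in GFP mice and 57.4 ± 9.76 in Notum mice (log2FC -0.47, SE 0.16, edgeR adjusted p = 0.230). Insig1, of the same function, had a log2FC of 0.58 (edgeR adjusted p = 0.328). The median over the 12 regulators was -0.02.

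Of 15 other enzymes and cofactors of synthesis, elongation and desaturation, 1 was higher and 1 lower at an unadjusted p under 0.05, close to the 4.64% and 9.54% of all genes, with a median log2FC of 0.05. The first was Mid1ip1, the paralog of Thrsp that promotes polymerisation of acetyl-CoA carboxylase, with 21.1 to 34.2 CPM in GFP mice and 34.3 to 42.5 CPM in Notum mice. Every Notum mouse lay above every GFP mouse (exact permutation p = 0.00216), by a narrow margin, as in 0.398% of all genes, and the log2FC was 0.39 (SE 0.11, edgeR adjusted p = 0.170). The second was Fads3, of the desaturase family of polyunsaturated fatty acids, with 242 ± 101 against 143 ± 23.2 CPM (log2FC -0.76, SE 0.26, edgeR adjusted p = 0.238). The 8 genes of triglyceride assembly had none at an unadjusted p under 0.05 and a median log2FC of 0.06. The smallest p in each direction belonged to the acyltransferase gene Agpat2 (log2FC 0.51, edgeR adjusted p = 0.398) and the phosphatidate phosphatase gene Lpin1 (log2FC -0.38, edgeR adjusted p = 0.428).

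Hepatocytes and brown adipocytes also express the pathway, so their markers are given beside these levels. The mean of 8 brown or beige adipocyte markers was 2.35 to 3.89 log2 CPM in GFP mice and 2.56 to 5.05 in Notum mice, with summed levels of 100 to 190 and 104 to 415 CPM. None of the 8 was without reads in any mouse, and 7 had a positive log2FC. AAV-Notum-2041, the mouse of highest Fasn and Elovl6, had the highest mean. With that mean as a covariate, added after the data were seen, the log2FC values were 0.65 for Elovl6, 0.61 for Me1, 0.52 for Acly, 0.40 for Fasn and 0.37 for Acaca, and 0 members were at an unadjusted p under 0.05, where 4.34% of all genes were higher and 8.24% lower. The part of these cells in the difference was not tested. With the lymphoid mean as a covariate, the values were 1.74 for Elovl6, 1.65 for Acly, 1.37 for Me1, 1.31 for Fasn, 1.08 for Acaca and -0.03 for Scd1, and 7 members were higher at an unadjusted p under 0.05, where 4.2% of all genes were higher and 4.9% lower. Of the lymphoid markers 15 of 15 had a positive log2FC, with summed levels of 10.2 to 1784 CPM in GFP mice and 570 to 2495 CPM in Notum mice. Of the hepatocyte markers 9 of 10 had a negative one, with summed levels of 2092 to 8881 and 1578 to 7013 CPM, and Fgb was without reads in AAV-GFP-2011 and Ttr and Fga in AAV-Notum-2042. Their part was not tested beyond these fits. With the hepatocyte mean as a covariate, also added later, the values in the same order were 1.48, 1.16, 1.03, 0.83, 0.74 and -0.54. Of 8 skeletal muscle markers 8 had a positive log2FC, and of 8 progenitor or fibroblast markers 6 had a negative one. By edgeR 4 of these 6 were at an unadjusted p under 0.05, where 9.54% of all genes were lower. The part of muscle and progenitor cells was not tested.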

How the data were processed

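Total RNA of iWAT from 12 mice, 6 per group, was made into TruSeq libraries and sequenced with single-end reads. According to the study's methods and processing notes, the authors checked reads with FastQC, mapped them to mm10 with STAR 2.3.1 and deposited counts of reads per gene without normalization, the table tested here. The authors also deposited log2 values (reads over a size factor, plus 1), which gave whole reads for 100% of values within 0.02 and served as an alternative. The counter, its strand setting and annotation are not given in the sources used here. For members the reads of the tables differed by at most 1.63%.

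Counts were tested in R 4.3.3 with edgeR 4.0.16: filterByExpr (minimum count 10, minimum total 15), TMM, glmQLFit, two-sided, Benjamini-Hochberg over 15585 genes, threshold 0.05. CPM use TMM library sizes, and log2 CPM a prior count of 2. SE is the log2FC over the root of F. Exact permutation tests ran in Python 3.11.15 over all assignments, with their code checked against scipy 1.17.1 on random values. Alternatives used DESeq2 1.42.0 (Wald test), the tool the study names, limma 3.58.1, other size factors, filters and covariates, and mice left out. The edgeR fit was tested on simulated counts. Positions and exon lengths are from GENCODE release M21 (GRCm38).

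The members and all gene lists were chosen with earlier results of these data known. Named genes were all members, in each list the gene of smallest p in each direction, the 8 genes most like the members, and Notum. Insig1, Usf2, Tkt and Pgls were named after their values were seen. Mouse numbers are not shared between the groups.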

Additional observations from a re-analysis of the deposited data

How the results depend on the processing

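No member passed an adjusted p of 0.05 under any of the 15 other settings or with any mouse left out, and edgeR, limma-voom and DESeq2 all gave 0. The log2FC of Acly, Me1, Acaca, Fasn, Elovl6, Thrsp and Srebf1 stayed positive and that of Scd1 negative in all of them. The members at an unadjusted p under 0.05 (3) were 5 with DESeq2, 7 with the lymphoid or the adipocyte score as a covariate, 6 without AAV-GFP-2011 and AAV-GFP-2014, 0 with the brown or beige score, and 1 (without AAV-Notum-2041) to 6 (without AAV-GFP-2014) with 1 mouse left out. It was 5 without AAV-Notum-2032. All of these members were higher. The share of all genes that were higher at that level was 4.64% in edgeR's fit, 3.34% with DESeq2, 4.20% with the lymphoid, 9.26% with the adipocyte and 4.34% with the brown or beige score, 2.16% without both AAV-GFP-2014 and AAV-GFP-2011, 4.28% without AAV-Notum-2041, 3.03% without AAV-GFP-2014 and 3.78% without AAV-Notum-2032.

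Genes called among all (8) were 436 with DESeq2, 14 with RLE, 5 with no filter, 15 with at least 10 counts in every mouse, 4 with the lymphoid, 118 with the adipocyte, 2 with the brown or beige and 31 with the hepatocyte score, 4 with limma on the deposited log2 values, 1 without AAV-GFP-2011 and AAV-GFP-2014, 5 with RNA isolated on the same date, 0 without AAV-GFP-2013, AAV-GFP-2014 and AAV-Notum-2041, and 1 to 158 with 1 mouse left out. The 9 other lipogenic genes at an unadjusted p under 0.05, higher or lower, were 15 with the lymphoid or adipocyte score. With 1 mouse left out they ran from 6 (without AAV-GFP-2012) to 14 (without AAV-Notum-2032). Of all genes, 4.64% were higher and 9.54% lower at that level in edgeR's fit. The shares were 4.20% and 4.90% with the lymphoid and 9.26% and 8.30% with the adipocyte score. They were 2.99% and 7.11% without AAV-GFP-2012, and 3.78% and 7.07% without AAV-Notum-2032.

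The log2FC of Scd2 turned to 0.42 with the lymphoid score, 0.12 with the adipocyte score and 0.41 without AAV-GFP-2014 and AAV-GFP-2011, and ran from -0.50 to 0.0376 with 1 mouse left out. That of Mlxipl turned to 0.16, 0.0709 and 0.0101 under the same 3 settings. By permutation of log2 CPM, the 1 member was 6 without both AAV-GFP-2014 and AAV-GFP-2011, where 2.7% of all genes were higher and 4% lower. The count was 0 to 6 with 1 mouse left out. Relative to adipocyte markers, the 6 members were 1 when undivided (Scd2 -0.0498, Mlxipl -0.18), 4 without AAV-GFP-2014 and AAV-GFP-2011 (Elovl6 and Me1 at an exact permutation p of 0.0524), 2 without AAV-GFP-2013, AAV-GFP-2014 and AAV-Notum-2041, and 5 to 7 with 1 mouse left out, with Scd2 from -0.0649 to 0.42. On this relative scale, 1.26% of all genes were higher and 2.69% lower without AAV-GFP-2014 and AAV-GFP-2011. Without AAV-GFP-2013, AAV-GFP-2014 and AAV-Notum-2041, 1.92% were higher and 1.59% lower. By permutation no share of all genes was computed with 1 mouse left out, so those member counts cannot be set against one. The cause of the changes between settings was not tested. Settings with the brown or beige or the hepatocyte score, and without AAV-GFP-2013, AAV-GFP-2014 and AAV-Notum-2041, were chosen after seeing the data. No paired analysis was possible because the groups share no mouse number.

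Depth was not limiting for the members, with 527 reads or more in every mouse, so the spread between mice sets the precision.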
